A study of Mus musculus with 160 samples.

Results

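The libraries described here were all those labelled with the mouse line HEM1, the older name of Nckap1l, and made up 31 of the 160 distal colon RNA-seq libraries of the series. They comprised 16 homozygous knockouts (HO; 12 male and 4 female) and 15 wild types (WT; 7 male and 8 female) of strain C57BL6/J. The mice were 8 to 10 weeks old, and the study describes the wild types as littermates from crosses between heterozygotes. The line was re-derived from an existing knockout model by mating males to C57BL6/J females, and the change that its allele carries is not given in the sources used here. The protocol for the line was 5 days of dextran sulfate sodium (DSS) in the drinking water, which injures the colonic epithelium, followed by 7 days of water, with tissue taken on day 12. Neither the labels nor the methods say which libraries came from treated mice. Treated and untreated colons were therefore analysed together, and the extent of inflammation was read from the RNA.

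Nckap1l encodes Hem1, the blood-cell form of the Nap1 subunit of the WAVE regulatory complex. The complex receives active Rac at the membrane and turns on Arp2/3, which builds the branched actin that leukocytes use to migrate, engulf particles and form immune synapses. Loss of Hem1 is known for defects in lymphocyte development and in neutrophil and macrophage function, and epithelial and stromal cells use the related protein Nap1, encoded by Nckap1.

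The inflammation score of a library was the mean log2(CPM + 1) of 4 genes, where CPM is the count of a gene scaled to 1000000 counts in its file. S100a8 and S100a9 encode the subunits of calprotectin, a protein of neutrophils, Il1b encodes the cytokine IL-1β, and Cxcl2 encodes a chemokine that draws neutrophils. The score ranged from 0.44 through a median of 2.38 to 7.20 in the knockouts and from 0.44 through 2.10 to 8.66 in the wild types. Both genotypes therefore spanned quiet and strongly inflamed colons, and their ranges overlapped almost entirely. Mean scores were 3.33 ± 2.57 (SD, n = 16) and 3.56 ± 2.51 (SD, n = 15), a difference of -0.23 (two-sided permutation test, p = 0.798, adjusted p = 0.850 over 5 single-value comparisons). The knockouts averaged 1.36 higher than the wild types among females (exact permutation p = 0.380) and 1.16 lower among males, a difference of -1.16 (exact permutation p = 0.360).

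RNA of tissue from beside the colon varied widely between libraries. Krt1, a keratin of skin, reached 2977 CPM in 1 knockout and was 0 CPM in others, and Acta1, the actin of striated muscle, ran from 2.12 to 2679 CPM. Krt1 lay between 9.96 and 10.83 on the log2(CPM + 1) scale in the 6 knockouts of the first run of sample numbers and between 0.00 and 1.05 in the 5 knockouts of the third. The labels number the libraries in 3 separate runs, with 6 knockouts and 8 wild types in the first, 5 and 4 in the second (all male) and 5 and 3 in the third. The wild types divided by run in the same way, apart from replicate 8 of the first run at 0.17 and replicate 15 of the third at 7.23, and in the second run knockout replicate 8 alone was high, at 11.54. Neither Krt1 (difference -0.78, permutation p = 0.694, adjusted p = 0.850) nor Acta1 (-0.22, permutation p = 0.850, adjusted p = 0.850) differed between the genotypes beyond the spread of libraries. Both genes entered the fits as covariates beside the score and sex. The colonocyte gene Slc26a3 was at 93.1 CPM or more and the goblet cell mucin Muc2 at 294 CPM or more in all 31 libraries. Total counts were 15129793 to 18498086, so that 3 counts corresponded to 0.162 to 0.198 CPM.

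**Figure D1:**
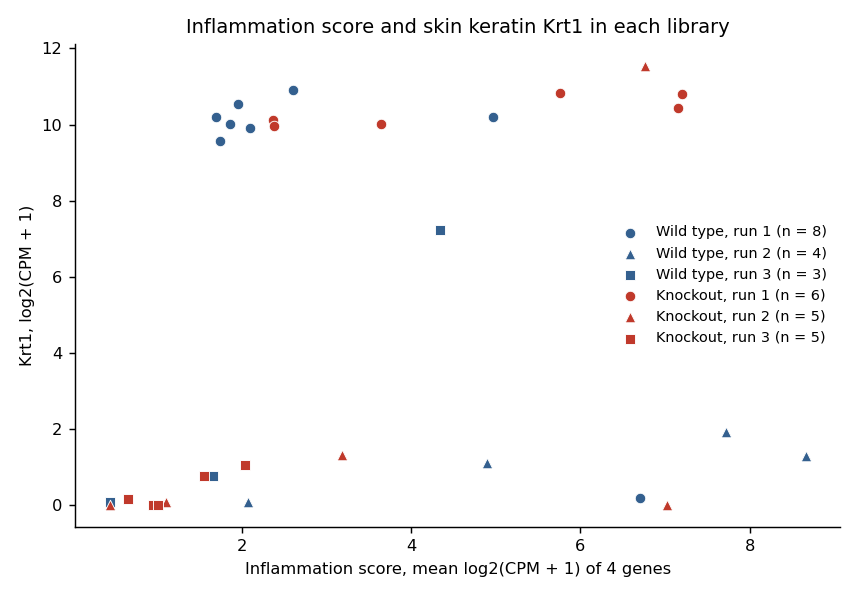
Inflammation score (x axis, mean log2(CPM + 1) of S100a8, S100a9, Il1b and Cxcl2) against Krt1 (y axis, log2(CPM + 1)) in each of 31 libraries, with colour for genotype and symbol for the run of sample numbers. The genotypes overlap along both axes, and the 6 knockouts of run 1 lie at a Krt1 of 9.96 or more while those of run 3 lie at 1.05 or less.

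Nckap1l RNA was lower in the knockouts but was not absent from any of them. It ranged from 4.66 through a median of 14.8 to 70.0 CPM in the knockouts and from 13.7 through 27.6 to 134 CPM in the wild types. The groups overlapped, and in both Nckap1l was higher where leukocyte RNA was higher. The difference in mean log2(CPM + 1) was -1.16 (permutation p = 0.0039, adjusted p = 0.00975). Set against the mean log2(CPM + 1) of 12 pan-leukocyte genes such as Ptprc, which encodes CD45, and Coro1a, an actin-binding protein of leukocytes, the value ran from 0.38 through 0.82 to 1.10 in the wild types and from -0.71 through -0.28 to 0.86 in the knockouts. The mean was -0.14 ± 0.52 (SD, n = 16) in the knockouts and 0.79 ± 0.21 (SD, n = 15) in the wild types, a difference of -0.93 (permutation p = 4e-05, adjusted p = 0.0002).

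In 3 libraries labelled knockout this value went against the label. Knockout replicates 7, 8 and 10, all of the second run, were at 0.82, 0.76 and 0.86, inside the wild-type range, whereas the other 13 were at 0.09 or lower and the lowest wild type was at 0.38. The 129 libraries of the other 3 lines had a median of 0.89 and a lowest value of 0.44. Knockout replicate 9, also of the second run, was at 0.09 and shared the B cell RNA of the 3 described below. Within runs the difference was -1.07 in the first (exact permutation p = 0.000666), -0.30 in the second (exact permutation p = 0.524) and -1.42 in the third (exact permutation p = 0.0357). The sex genes matched the label in 31 of 31 libraries. All 16 libraries labelled knockout stay in the results below, which are given also without the 3 libraries or without the whole second run, and p-values measure the spread between libraries.

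**Figure D2:**
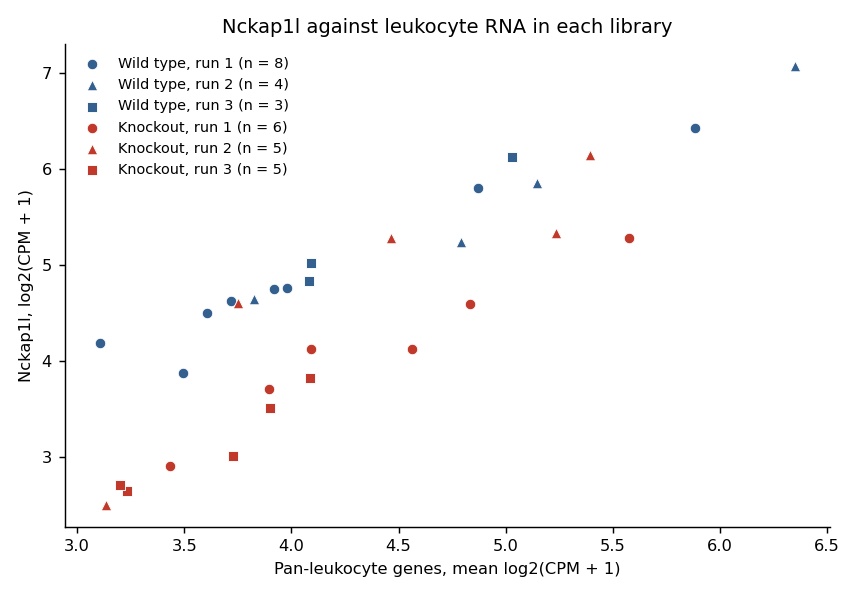
Mean log2(CPM + 1) of 12 pan-leukocyte genes (x axis) against log2(CPM + 1) of Nckap1l (y axis) in each library. Knockouts lie in a band below the wild types, apart from 3 knockout triangles of run 2 that lie among the wild types (0.76 to 0.86 above the pan-leukocyte mean).

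With score, Krt1, Acta1 and sex in the edgeR quasi-likelihood fit, 51 genes differed between the genotypes at a Benjamini-Hochberg adjusted p under 0.05, 32 raised in the knockouts (0.178% of 17947 tested) and 19 lowered (0.106%). The raised genes included components of complement, class I histocompatibility molecules, serpins and products of colonic epithelium, and the lowered ones included several proteins of the smooth muscle contractile apparatus. With sex as the sole covariate no gene passed by edgeR, where 807 had an unadjusted p under 0.05, and none by limma-voom, against 21 by DESeq2. All 51 genes kept their direction without the 3 libraries, where 50 of them passed, and 50 were tested and kept their direction without the second run, where 25 passed. The fit without the 3 libraries called 67 genes raised (0.374%) and 78 lowered (0.436%), and the fit without the second run 29 (0.162%) and 55 (0.307%). Within runs the direction held for 51 of 51 genes in run 1, 45 of 48 tested in run 2 and 47 of 48 tested in run 3. Of these genes 3 passed in run 1 alone, 0 in run 2 and 11 in run 3. The 51 genes were called over all libraries, of which these sets are parts. Their shared direction is thus partly fixed by that choice and is no independent check. The genes S100a8, S100a9, Il1b, Cxcl2, Krt1 and Acta1 define the covariates, and their values in this fit are no result.

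Ang4, an antimicrobial ribonuclease made by Paneth and goblet cells, was raised most among the called genes with average log2 CPM of at least 1. It was at 0.113 to 850 CPM in the knockouts, with a median of 4.54, and at 0 to 4.94 CPM in the wild types, with a median of 0.620. The highest values were 850 CPM in knockout replicate 14 and 115 CPM in replicate 16, yet 4 knockouts of the second run were at 0.113 to 1.17 CPM, inside the wild-type range. Knockout replicates 2, 4, 12 and 15 of the other runs, at 0.120 to 3.36 CPM, lay inside that range too. Its log2 fold change was 6.36 ± 1.25 (SE; edgeR adjusted p = 0.0222), and without the second run 5.76 (edgeR adjusted p = 0.0852). The size of this value rested on few libraries: it was 4.89 without knockout replicate 14 (edgeR adjusted p = 0.0229) and 5.44 without knockout replicate 5 (edgeR adjusted p = 0.0826), and Ang4 stayed past the threshold in 27 of 31 fits that each left out 1 library. By limma-voom it stood at 4.09 and did not pass (limma-voom adjusted p = 0.257). Retnlb, a bactericidal goblet cell protein of the same fixed list of antimicrobial epithelial genes, was at 0.235 to 394 CPM against 0.0541 to 35.6 CPM, with a log2 fold change of 3.94 ± 0.98 that did not pass (edgeR adjusted p = 0.0766). Of that list 13 of 16 genes were tested, 1 was called, and the median log2 fold change was 0.45, against 0.00 over all genes tested.

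Col6a5, a collagen VI chain, was higher in most knockouts. It lay at 10.4 to 173 CPM in the 12 knockouts other than replicates 7 to 10, at 2.65 to 10.9 CPM in those 4, and at 2.26 to 13.3 CPM in the wild types. Its log2 fold change was 2.11 ± 0.40 (edgeR adjusted p = 0.0181), and 2.28 without the 3 libraries (edgeR adjusted p = 0.00152). Without knockout replicate 5, the library at 173 CPM, it was 1.34 (edgeR adjusted p = 0.0343), and by limma-voom 1.63 (limma-voom adjusted p = 0.0938). Mucl1 (chromosome 15) lies 253 kb from Nckap1l and was the single called gene among 137 tested within 5 Mb of it. It was at 0 to 15.5 CPM in the knockouts and 0 to 2.76 CPM in the wild types, with medians of 0.244 CPM in both. The values of 2.17 CPM and above in knockouts all belonged to the first run, whose libraries carried the skin keratin, and the part of that tissue in the difference was not tested. The log2 fold change of Mucl1 was 2.35 ± 0.41 (edgeR adjusted p = 0.0143). Another 17 genes in the window, Nckap1l included, had an unadjusted p under 0.05 without passing. Among them were the keratins Krt2, Krt4, Krt71, Krt75 and Krt77. With Mucl1 counted, 5 of the 137 were raised and 13 lowered at that p. Over all genes tested 5.53% were raised and 5.08% lowered at that p.

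Of 17 tested components of complement, the cascade of plasma proteins that tags and lyses microbes, 4 were called, all raised, and 13 had an unadjusted p under 0.05, all raised, while over all genes 5.53% were raised and 5.08% lowered at that p. This family, like the class I and Serpina3 families that follow, was put together after its values had been seen. C3, the central component of all complement pathways, ranged from 198 through a median of 432 to 3252 CPM in the knockouts and from 113 through 208 to 1950 CPM in the wild types. The groups overlapped, C3 climbed with the score in both, and at low scores most knockouts lay above the wild types. Its log2 fold change was 1.06 ± 0.19 (edgeR adjusted p = 0.0157). C6, a component of the membrane attack complex, was at 0.117 to 15.6 CPM against 0 to 7.47 CPM (medians 2.81 and 0.629), a log2 fold change of 1.99 ± 0.40 (edgeR adjusted p = 0.0274) that limma-voom put at 1.81 without passing (limma-voom adjusted p = 0.0642). C2 rose by 0.89 and C4b by 0.61 on the same scale (edgeR adjusted p = 0.0450 and 0.0496).

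Class I histocompatibility genes, whose products show peptides to CD8 T cells, had 6 members called of 17 tested, all raised (0.178% over all genes). In that family 11 had an unadjusted p under 0.05, all raised (5.53% over all genes). B2m, the light chain they share, ranged from 211 through 468 to 958 CPM in the knockouts and from 168 through 280 to 948 CPM in the wild types, a log2 fold change of 0.71 ± 0.15 (edgeR adjusted p = 0.0313). H2-K1 rose by 0.40 ± 0.07 (edgeR adjusted p = 0.0175). H2-Q7 was at 5.99 to 75.0 CPM against 5.03 to 72.8 CPM (medians 34.02 and 12.8), a log2 fold change of 1.29 ± 0.26 (edgeR adjusted p = 0.0274), and H2-Q6 one of 1.21 ± 0.25 (edgeR adjusted p = 0.0318). The Q region genes are near-copies of each other, so how their reads were divided is uncertain. By limma-voom neither H2-Q7 nor H2-Q6 passed (limma-voom adjusted p = 0.0750 and 0.0923). The interferon-responsive genes of the fixed list showed 9 of 31 tested with an unadjusted p under 0.05, all raised, and 0 called. Gbp4, a guanylate-binding protein, had a log2 fold change of 1.09 ± 0.33 (edgeR adjusted p = 0.183) and Iigp1, an immunity-related GTPase, 1.60 ± 0.54 (edgeR adjusted p = 0.218). In the class II list 6 genes leaned up and 3 down among 10 tested. H2-DMb1, which loads peptides, had a log2 fold change of 0.90 (edgeR adjusted p = 0.187), and H2-Ob, a subunit of the B cell inhibitor of that step, one of -1.51 (edgeR adjusted p = 0.258).

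The serine protease inhibitors of the Serpina3 cluster on chromosome 12 were raised at 4 of 9 members tested, where 0.178% of all genes tested were raised. Serpina3c had the smallest p of all genes: it was at 1.06 through 2.94 to 10.8 CPM in the knockouts and at 0.366 through 1.95 to 4.97 CPM in the wild types, a log2 fold change of 1.34 ± 0.20 (edgeR adjusted p = 0.0060). Serpina3n, the most studied acute-phase member, ranged from 28.0 through 72.4 to 759 CPM against 12.7 through 27.2 to 726 CPM, a log2 fold change of 1.12 ± 0.19 (edgeR adjusted p = 0.0143). Serpina3f and Serpina3g had log2 fold changes of 1.88 and 1.41 (edgeR adjusted p = 0.0442 for both), and neither passed by limma-voom (limma-voom adjusted p = 0.283 and 0.122). Of 31 fits that each left out 1 library, Serpina3f passed in 9 and Serpina3g in 10. The genes of the cluster are also close copies, and the level of each rests on how multiply mapping reads were counted. With sex alone in the fit the log2 fold change was 0.09 for Serpina3f and 0.27 for Serpina3n. The slope of Serpina3n on the score was 0.62 ± 0.06 in the knockouts and 0.75 ± 0.05 in the wild types, in log2 units per unit of score.

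**Figure D3:**
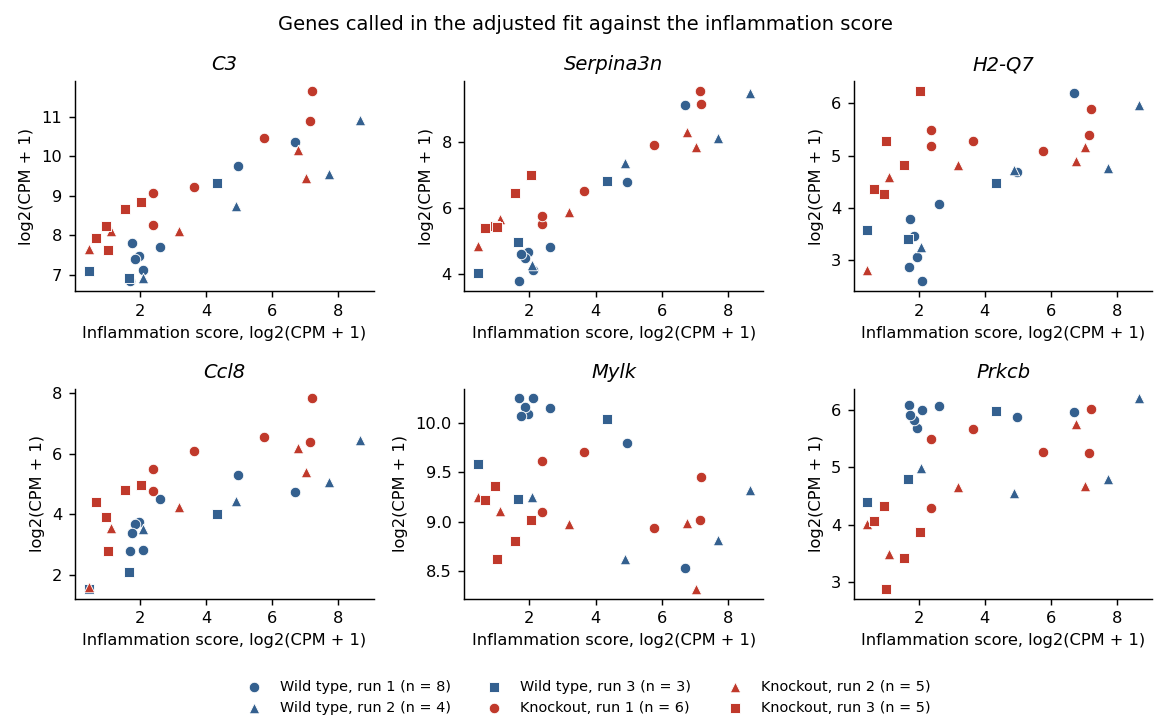
Level of 6 called genes (y axes, log2(CPM + 1)) against the inflammation score (x axes, log2(CPM + 1)) in 31 libraries, coloured by genotype with a symbol for each run. C3, Serpina3n, H2-Q7 and Ccl8 climb with the score and lie mostly higher in knockouts at low scores, and the medians of Mylk and Prkcb are lower in the knockouts within runs 1 and 3, where single libraries of the genotypes overlap except for Prkcb in run 3.

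Other raised genes are known from several cell types, and which cells made their RNA was not tested. In the fixed myeloid lists 0 of 18 macrophage, 1 of 13 dendritic cell and 2 of 14 neutrophil genes tested were called, all raised. Over all genes tested 0.178% were called raised. Ccl8, a monocyte chemokine, ranged from 2.05 through 28.5 to 226 CPM in the knockouts and from 1.89 through 12.5 to 86.9 CPM in the wild types, a log2 fold change of 1.34 ± 0.28 (edgeR adjusted p = 0.0296), and by limma-voom of 1.19 (limma-voom adjusted p = 0.0543). Clec10a, a lectin of macrophages and dendritic cells, rose by 1.13 ± 0.20 (edgeR adjusted p = 0.0143), and it was the gene called in the dendritic cell list. Mmp9, a gelatinase of neutrophils, and Fpr2, a receptor for formyl peptides, rose by 1.12 and 1.09 (edgeR adjusted p = 0.0460 and 0.0358), and they were those called in the neutrophil list, whose median was 0.05. Cd163l1, a scavenger receptor, rose by 1.54 (edgeR adjusted p = 0.0167), Pdcd1, which encodes the inhibitory receptor PD-1, by 1.24 (edgeR adjusted p = 0.0181), and Trpv6, an epithelial calcium channel, by 1.07 (edgeR adjusted p = 0.0314). Of 15 goblet cell genes tested 0 were called by edgeR and 7 had an unadjusted p under 0.05, all raised (5.53% over all genes). The largest such value was that of Clca1, a protein of secreted mucus, at 1.14 ± 0.36 (edgeR adjusted p = 0.189). C2, C3, C4b, Serpina3n, B2m, H2-K1, Cd163l1, Pdcd1 and Trpv6 were named after their values were seen.

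Among the lowered genes were contractile proteins of smooth muscle. Mylk, the kinase that phosphorylates myosin light chain to start contraction, ranged from 318 through 531 to 836 CPM in the knockouts and from 369 through 886 to 1217 CPM in the wild types. The 8 wild types of the first run, with a median of 1113 CPM, stood above its 6 knockouts except for replicate 8 at 369 CPM, and in the second run the medians were 507 and 528 CPM. The log2 fold change was -0.50 ± 0.10 (edgeR adjusted p = 0.0222). Synpo2 (-0.53), Synm (-0.49) and Lmod1 (-0.43), an actin-binding protein, an intermediate filament protein and a nucleator of smooth muscle actin, fell as well (edgeR adjusted p = 0.0292, 0.0496 and 0.0460). Ppp1r12b, a subunit of the myosin phosphatase, and Pde5a, the cGMP phosphodiesterase of smooth muscle, both named after their values were seen, fell by 0.35 and 0.32 on the log2 scale (edgeR adjusted p = 0.0181 and 0.0222). In the fixed smooth muscle list 3 of 10 genes tested were called, all lowered (0.106% over all genes). At an unadjusted p under 0.05 were 10 of 10, all lowered (5.08% over all genes), and the median was -0.42. The summed level of the list ranged from 2719 through 5880 to 10577 CPM in the knockouts and from 3611 through 9569 to 13215 CPM in the wild types. In whole tissue fewer cells of a type and less RNA per cell cannot be told apart. Without the second run 1 of the 10 passed, and the median was -0.44. Without Krt1 and Acta1 as covariates Mylk, Synpo2, Synm and Lmod1 did not pass (edgeR adjusted p = 0.471 to 0.768). Nor did they with a score of other neutrophil genes (edgeR adjusted p = 0.0580 to 0.101). Of 31 fits that each left out 1 library, Mylk passed in 28, Synpo2 in 23, Lmod1 in 7 and Synm in 6.

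Prkcb, a protein kinase C of lymphocytes and neurons that acts in B cell receptor signalling, ranged from 6.34 through 21.5 to 63.3 CPM in the knockouts and from 19.99 through 57.7 to 72.6 CPM in the wild types. In the third run all 5 knockouts (6.34 to 18.99 CPM) lay below the 3 wild types (19.99 to 62.0 CPM). Its log2 fold change was -0.91 ± 0.16 (edgeR adjusted p = 0.0155) and -1.17 without the second run (edgeR adjusted p = 0.00449). The same direction held for Shisal1 (-0.63), Spock3 (-0.69) and Dner (-0.48), with edgeR adjusted p of 0.0181, 0.0442 and 0.0318. Of 31 fits that each left out 1 library, Shisal1 passed in 29, Dner in 19 and Spock3 in 12. Without the second run Shisal1 and Spock3 did not pass (edgeR adjusted p = 0.0552 and 0.136), while Dner did (edgeR adjusted p = 0.0344). Gm9573, at 0 to 13.8 CPM against 0 to 12.0 CPM, fell by 1.16 on the log2 scale in this fit (edgeR adjusted p = 0.0463). With sex alone Gm9573 stood at 0.51. It passed in 9 of 31 fits that each left out 1 library, and not by limma-voom (limma-voom adjusted p = 0.479). Igkv10-96, an immunoglobulin kappa variable segment, was lowered most among the called genes with average log2 CPM of at least 1. Its log2 fold change was -3.51 ± 0.77 (edgeR adjusted p = 0.0442). It stayed past the threshold in 11 of 31 fits that each left out 1 library, and without knockout replicate 10 it stood at -5.11 (edgeR adjusted p = 0.000727). It was at 0 to 0.232 CPM in the knockouts of runs 1 and 3 and at 0.119 to 227 CPM in their wild types, and the assignment of reads among such segments is uncertain.

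**Figure D4:**
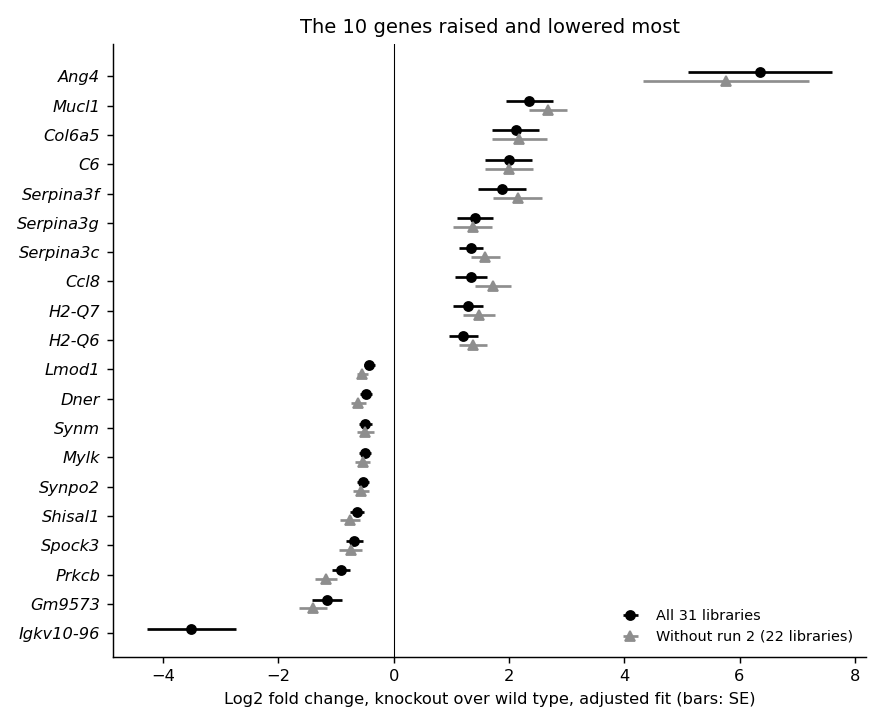
Log2 fold change of knockout over wild type (x axis, bars SE) in the adjusted edgeR fit, over all 31 libraries (circles) and the 22 outside run 2 (triangles). The 20 genes are the 10 raised and 10 lowered most among called genes with average log2 CPM of at least 1. The 19 genes with both values lie on the same side of 0 in both, from 6.36 for Ang4 to -1.16 for Gm9573; Igkv10-96 at -3.51 was not tested without run 2.

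The B cell genes Cd79a and Ms4a1 were low in 12 knockouts. Cd79a, a chain of the B cell receptor, was at 0.0602 to 0.486 CPM in these 12, at 4.81 to 11.1 CPM in knockout replicates 7 to 10, and from 0.119 through 4.53 to 47.4 CPM in the 15 wild types. Ms4a1, which encodes CD20, was at 0.132 to 0.986, 5.17 to 12.5 and 0.703 to 55.3 CPM in the same sets of libraries. The 12 and the 4 did not overlap for these genes, replicate 9 having been set with the 3 for this RNA, whereas wild types of the first run reached down to the range of the 12. The summed level of the fixed B cell list differed less. It ran from 137 through 153 to 388 CPM in all 16 knockouts and from 142 through 252 to 1099 CPM in the wild types. In the 12 it ran from 137 through 147 to 191 CPM. Replicate 9 was set apart from the 12 for its Cd79a, and no wild type was set apart in this way. The contrast of the 12 with the wild types in B cell RNA is thus partly fixed by that choice. Of the 20 genes of the fixed B cell list 19 were tested and 0 were called by edgeR over all libraries. An unadjusted p under 0.05 was found for 18, all lowered (5.08% over all genes), and the list median was -1.48. Cd79a was at -1.81 ± 0.67 (edgeR adjusted p = 0.284), and at -3.42 without the 3 libraries (edgeR adjusted p = 0.00110). Without the 3 libraries 13 of 17 tested were called, all lowered, with a median of -2.15, and without the second run 8 of 13. Over all genes tested these fits called 0.436% and 0.307% lowered. The filter on low counts left out Cd79a and Pax5 without the second run, while Cd79b, the partner chain of Cd79a, stood at -3.86 there (edgeR adjusted p = 9.54e-05).

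Plasma cell genes divided the libraries in a similar way, with some overlap. Igha, the constant region of IgA, was at 0.249 to 16.7 CPM in the 12 knockouts, at 9.35 to 354 CPM in replicates 7 to 10 and from 6.95 through 40.7 to 3817 CPM in the wild types. Jchain, which joins IgA into dimers, was at 0.181 to 5.23 CPM, 2.98 to 95.4 CPM and 2.20 to 928 CPM. The highest wild-type values of both genes came from replicate 8, the inflamed wild type of the first run that lacked skin keratin. Jchain had a log2 fold change of -2.47 ± 0.74 over all libraries (edgeR adjusted p = 0.168), -4.24 without the 3 (edgeR adjusted p = 0.000211) and -4.88 without the second run (edgeR adjusted p = 8.72e-07). Of 14 plasma cell genes tested 0 were called by edgeR and 8 had an unadjusted p under 0.05, all lowered (5.08% over all genes). Without the 3 libraries 5 genes of the plasma cell list were called, all lowered (0.436% over all genes). The summed level of that list ran from 544 through 739 to 1356 CPM in all 16 knockouts and from 604 through 842 to 8607 CPM in the wild types. In the 12 knockouts, chosen in part by B cell RNA, it ran from 544 through 696 to 913 CPM. Of 24 T cell genes tested 0 were called by edgeR, 2 were raised and 1 lowered at an unadjusted p under 0.05, and the median was 0.14. Cd3e, a chain of the T cell receptor complex, was at 0.470 to 6.50 CPM in the knockouts and 0.772 to 7.39 CPM in the wild types.

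**Figure D5:**
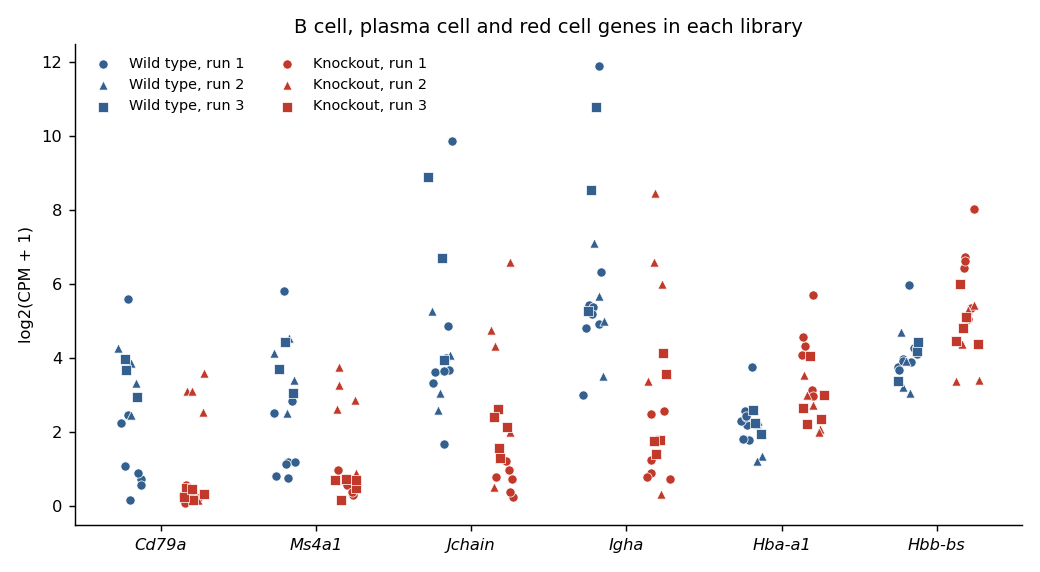
Log2(CPM + 1) of B cell (Cd79a, Ms4a1), plasma cell (Jchain, Igha) and red cell (Hba-a1, Hbb-bs) genes, 1 point per library, wild type on the left and knockout on the right of each gene, symbols by run. For Cd79a, 12 knockouts sit at 0.486 CPM or less and 4 triangles of run 2 at 4.81 to 11.1 CPM; Hbb-bs sits higher in most knockouts, with 2 of run 2 near 9.52 CPM.

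Red cell genes leaned the other way. Hbb-bs, an adult beta globin, ranged from 9.52 through 35.8 to 262 CPM in the knockouts and from 7.27 through 14.2 to 61.6 CPM in the wild types. Outside the second run all 11 knockouts were at 19.997 CPM or more. The 11 wild types ran from 9.50 through a median of 14.8 to 61.6 CPM there, so the groups overlapped. Its log2 fold change was 1.68 ± 0.40 (edgeR adjusted p = 0.0645) and 1.82 without the 3 libraries (edgeR adjusted p = 0.0228). Hba-a1 and Hba-a2, near-identical copies of alpha globin, were at 1.56 and 1.60 (edgeR adjusted p = 0.0712 and 0.0696). In the erythroid list 0 of 9 genes tested were called by edgeR and 7 had an unadjusted p under 0.05, all raised (5.53% over all genes). Without the 3 libraries 4 were called, all raised (0.374% over all genes), and without the second run 0.

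By edgeR no gene of the WAVE complex passed the test over all libraries. Nckap1l itself stood at -0.99 ± 0.27 (edgeR adjusted p = 0.113), and it passed by DESeq2 at -1.01 (DESeq2 adjusted p = 0.0103) and by limma-voom at -1.06 (limma-voom adjusted p = 0.0392). Without the second run it was at -1.53 (edgeR adjusted p = 0.000900). Nckap1, the form used outside blood cells, was at 263 to 352 CPM in the knockouts and 266 to 365 CPM in the wild types, with a log2 fold change of -0.06 ± 0.05 (edgeR adjusted p = 0.726). Of the 11 genes of the complex 0 were called by edgeR, and 4 had an unadjusted p under 0.05, all lowered, namely Nckap1l, the Sra-type subunit Cyfip2 (-0.36 ± 0.14, edgeR adjusted p = 0.314), and the WAVE proteins Wasf1 (-0.42 ± 0.12, edgeR adjusted p = 0.145) and Wasf3 (-0.32 ± 0.11, edgeR adjusted p = 0.242). Wasf2, the WAVE protein of most cell types, was at -0.01 ± 0.04, Cyfip1 at -0.07 ± 0.04, Abi1 at -0.03 ± 0.04, Abi2 at -0.16 ± 0.08, Abi3 at -0.11 ± 0.13 and Brk1 at 0.05 ± 0.05. Among 15 genes of Rac activation in leukocytes and 9 of Arp2/3 none was called by edgeR. At an unadjusted p under 0.05, 1 of the Rac genes was raised and 3 were lowered, and 2 of the Arp2/3 genes were lowered. Over all genes tested 5.53% were raised and 5.08% lowered at that p. The exchange factor Dock8 was at -0.29 ± 0.09 (edgeR adjusted p = 0.161) and passed without the second run at -0.46 (edgeR adjusted p = 0.00690).

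Of the 33 fixed lists, 29 had no member called by edgeR. Over all genes tested 5.53% were raised and 5.08% lowered at an unadjusted p under 0.05. Macrophage genes showed 5 of 18 raised at an unadjusted p under 0.05, led by the complement C1q chains C1qa, C1qb and C1qc at 0.35 to 0.37. Colonocyte, crypt stem cell and proliferation genes had medians of -0.12, -0.04 and -0.15, and the fibroblast and matrix list one of 0.15. In the list of fetal-like repair genes of the epithelium 1 of 15 was raised and 5 were lowered at an unadjusted p under 0.05, among them the EGF receptor ligands Ereg (-0.77 ± 0.23, edgeR adjusted p = 0.159) and Areg (-0.72 ± 0.26, edgeR adjusted p = 0.270). Siglech, a receptor of plasmacytoid dendritic cells, was at 0.124 to 2.98 CPM in the knockouts and 0.427 to 4.52 CPM in the wild types. It had a log2 fold change of -0.98 ± 0.39 (edgeR adjusted p = 0.327), and -2.01 without the second run (edgeR adjusted p = 0.000900). Ccr6, a chemokine receptor of B cells and of T helper 17 cells, was at -1.32 ± 0.41 (edgeR adjusted p = 0.189) and at -2.36 without the second run (edgeR adjusted p = 0.0123). Nkg7, a protein of cytotoxic granules, was at 1.06 ± 0.28 (edgeR adjusted p = 0.114). Siglecf, a lectin of eosinophils, was at 0.68 ± 0.23 (edgeR adjusted p = 0.228), 1 of 2 eosinophil genes of 4 tested that were raised at an unadjusted p under 0.05. Inflammatory cytokine and chemokine genes outside the score had 1 of 16 raised and 2 lowered at that p, with a median of -0.06.

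Whether genotype changed how a gene moved with inflammation was tested as the interaction of genotype and score. No gene passed by edgeR or limma-voom, 7 passed by DESeq2, and 398 (2.22%) had a steeper and 789 (4.4%) a shallower slope in the knockouts at an unadjusted edgeR p under 0.05. The smallest p belonged to Krt25, a hair keratin, whose log2 level per unit of score changed by -0.41 ± 0.10 in the knockouts and 0.45 ± 0.13 in the wild types (edgeR adjusted p = 0.0767 for the difference). Outside the first run it was above 2 CPM in knockout replicate 8 alone, so that the slopes rest on the first run and that library. Krt71, also of hair, had the same pattern (slope difference -0.87 ± 0.17, edgeR adjusted p = 0.0900). The unannotated gene ENSMUSG00000054588 stood at -0.48 ± 0.12 and 0.56 ± 0.13 per unit of score in knockouts and wild types (edgeR adjusted p = 0.0767). It reached 13.6 CPM in the knockouts and 3.44 CPM in the wild types. 9530053A07Rik (slope difference -1.50 ± 0.32, edgeR adjusted p = 0.246) was at 5779 CPM in wild-type replicate 10 and at 98.2 CPM in replicate 11. In the other wild types it was at 3.79 CPM or less, so that its slope rests on 2 libraries. In these 2 Tgm4, a transglutaminase of the prostate, was at 728 and 11.3 CPM, and the part of that tissue in the slope was not tested. Pdzrn3, a ubiquitin ligase, was at -0.14 ± 0.03 (edgeR adjusted p = 0.237).

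Over all genes tested 4.4% had a shallower and 2.22% a steeper slope in the knockouts at an unadjusted p under 0.05. Counts in the fixed lists of immune genes are given beside these shares, and differences between lists were not tested. Of 31 interferon-responsive genes tested 8 had a shallower slope at an unadjusted p under 0.05 and 0 a steeper one, with a list median of -0.20 log2 per unit of score against 0.00 over all genes. Among class II genes 3 of 10 were shallower, and among T helper regulators 4 of 8. The list of inflammatory cytokines and chemokines had 2 of 16 shallower and a median of -0.04, the neutrophil list 2 of 14 and -0.01, the macrophage list 0 of 18 and -0.01, and the antimicrobial list 0 of 13 and 0.02. The slope of C3 was 0.38 ± 0.05 in the knockouts and 0.56 ± 0.05 in the wild types, that of B2m 0.12 ± 0.04 and 0.26 ± 0.04, and that of Serpina3f 0.44 ± 0.11 and 0.88 ± 0.11. None of these differences passed. In the opposite direction Sult2b1, a sulfotransferase for cholesterol, had a slope of -0.01 ± 0.03 in the knockouts and -0.22 ± 0.03 in the wild types (edgeR adjusted p = 0.247). A genotype-by-sex term added to the adjusted fit called 0 genes by edgeR, with 1128 at an unadjusted p under 0.05.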

How the data were processed

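Total RNA of the distal colon was depleted of ribosomal RNA, and libraries were made with a stranded kit. The authors aligned reads to mm10 with STAR and deposited raw counts per gene from featureCounts (Subread); versions and the strand setting are not given in the sources used here. The deposited counts were not normalized. Names and positions of 37693 of the 39179 genes came from the GENCODE annotation of GRCm38. No column holds the authors' own comparisons.

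After filterByExpr and TMM normalization of the 31 libraries, quasi-likelihood fits (edgeR 4.0.16, R 4.3.3) held genotype, sex, score, Krt1 and Acta1, and p-values were adjusted by Benjamini-Hochberg over all genes tested. The SE of a log2 fold change was its size over the square root of F. Single values were compared by two-sided permutation of samples (100000 resamples, or exact) in scipy 1.17.1, with 1 CPM as the pseudocount. Tested on simulated counts of 17947 genes, the adjusted fit recovered 99% of 200 changes of 1.5 on the log2 scale, and 4.81% of its calls were false. The interaction fit recovered 94.5% of 200 slope changes of 0.5, and 6.9% of its calls were false. The changes were set in genes of average log2 CPM above 1. Smaller changes, run differences and doubtful labels were not simulated. The smallest chi-square per gene between libraries of a genotype was 9.3 over 225 pairs, above sampling noise, so none was counted as a repeat deposit. The floor of 3 counts covers counting error only.

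Alternatives were DESeq2 1.42.0, limma-voom (limma 3.58.1), surrogate variables (sva 3.50.0), other filters, covariates and sets of libraries. Named genes were the 10 raised and 10 lowered most of the called genes with average log2 CPM of at least 1 (5 of smallest p where fewer passed), the WAVE genes, up to 4 genes of smallest p per list, and genes within 5 Mb of Nckap1l with unadjusted p under 0.05. The members, covariates and lists were chosen with earlier results of these data known. Single-gene results of 1 list member are not reported here, and it remains in the counts over its list. Leaving out libraries of the second run was added after seeing the data.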

Additional observations from a re-analysis of the deposited data

Results flagged for a closer look

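The difference in Nckap1l per leukocyte RNA between the genotypes was not the same in the second run of sample numbers as in the other runs. Knockout minus wild type was -0.30 in the second run and -1.20 in runs 1 and 3 together, so that the differences were 0.91 apart on the log2 scale (run labels permuted within genotype, 100000 resamples, permutation p = 0.00179, adjusted p = 0.00537 over the 3 values given here). Another gene was also tested in this way, is not reported here and is not counted in that adjustment. The same test gave 0.91 for Cd79a (permutation p = 0.439, adjusted p = 0.439) and -0.93 for Hbb-bs (permutation p = 0.240, adjusted p = 0.360). The comparison was chosen after the values of the second run had been seen.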

How the results depend on the processing

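Calls depended on the covariates, the filter and the libraries. The inflammation-adjusted edgeR fit called 51 genes. DESeq2 called 196 genes (49 of the 51), limma-voom 33 (26 of the 51), a filter of 1 count in total 101, 10 or more counts in each library 30, an adjusted p under 0.01 gave 1, a score of other neutrophil genes 15, no Krt1 and Acta1 4 and males only 0 by edgeR, with 1013 at an unadjusted p under 0.05. Without the 3 libraries 145 were called, without replicates 7 to 10 of the knockouts 235 and without the second run 84; runs 1, 2 and 3 alone gave 11, 0 (146 at an unadjusted p under 0.05) and 159. All 51 genes kept their sign with DESeq2, with limma-voom (which called 13 raised and 20 lowered) and with the other covariate sets of the adjusted fit. Leaving out single libraries gave 9 to 104 genes: 9 to 33 without wild-type replicates 1, 2, 4, 5, 6, 11 or 12 or knockout replicates 2, 4, 5, 8, 11, 14, 15 or 16, and 85 and 104 without knockout replicates 7 and 9.

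The interaction gave 0 genes by edgeR and 7 with DESeq2, 7 with at least 1 count, 3 with the run added, 2 with a squared score, 2 without Krt1 and Acta1, 2 without the 3 libraries, 1 without 4, and 0 to 6 when single libraries were left out (above 0 without knockout replicates 5, 7, 10 or 14 or wild-type replicates 3, 7, 8, 11 or 15). With sex alone 0 genes became 82 with 2 surrogate variables, 21 with DESeq2, 27 with at least 1 count, 33 without the 4 libraries and 2 without the second run, and 0 at lowest and 0 at highest when single libraries were left out. Members of the fixed lists called fell from 7 to 0 with sex alone.

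The score difference of -0.23 became 0.42 without the second run, 1.80 in the first run alone, and -0.49 to 0.13 when single libraries were left out, above 0 without wild-type replicate 10 (0.13) or 11 (0.06); none passed. Nckap1l stood at -1.03 in males (permutation p = 0.0704), -0.74 and -0.93 in the first and second runs alone (exact permutation p = 0.124 and 0.365), and -1.30 to -1.03 with single libraries left out. Nckap1l per leukocyte RNA stood at -0.30 in the second run alone and at -0.99 to -0.89 with single libraries left out. In the second run alone Dner was at 0.16 and Ccl8 at -2.68e-06. Of 322 values of 21 named genes, 183 kept their side of the threshold, 131 no longer passed, 6 newly passed and 2 reversed. No paired analysis was possible because the labels give the genotypes no shared replicate numbers. DSS treatment, not given per library, and the 3 libraries that go against their label limit these results.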

Other observations

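RNA of neighbouring organs reached single libraries. Tgm4, a transglutaminase of the prostate, was at 728 CPM in wild-type replicate 10 and 11.3 CPM in wild-type replicate 11, both male. Ctrl, a chymotrypsin-like protease of the pancreas, was at 367 CPM in knockout replicate 16 and 145 CPM in knockout replicate 15. Both genes were chosen after their values were seen.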
